A study of Mus musculus with 8 samples.

Results

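The Schlafen genes measured here were the 7 mouse family members *Slfn1*, *Slfn2*, *Slfn3*, *Slfn4*, *Slfn5*, *Slfn8* and *Slfn9*, taken by name. Each of the 7 had exactly 1 row among the 24625 rows of the expression table. The samples were neutrophils taken from mouse lungs with magnetic beads that bind Ly6G, a surface protein of mouse neutrophils. All mice were wild type and aged 6 to 12 weeks per the labels, while the study's methods give a narrower range within these limits. The mice came from colonies of the inbred strain C57BL/6J. The study's methods name adult females as the mice purchased for these colonies. They call the mice studied sex-matched without naming the sex. One group of 4 samples came from mice that received phosphate-buffered saline (PBS) into the left lung, and the other group of 4 from mice that received a suspension of *Streptococcus pneumoniae* (SP) by the same route, at 2.3 µl per g of body weight, with neutrophils taken 24 h later. The study describes each sample as coming from 1 mouse, so that n counts mice. The study's methods describe a purity check by stained cell preparations for samples from infected mice only. They also report high Ly6G mRNA in all samples.

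Schlafen genes take their name from the German word for sleeping, because the first members were found as brakes on the growth of developing T cells. The proteins share a core region which in several members cuts transfer RNA or ribosomal RNA. Short members hold little beyond this core, intermediate members extend it, and long members add a helicase-like region at the C-terminal end. Many are induced by interferons and by bacterial products, in myeloid cells among others. The mouse genes lie side by side on chromosome 11.

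All 7 Schlafen genes were higher in neutrophils from SP lungs than in those from PBS lungs. The differences ran from 0.62 on the log2 scale for *Slfn4* (1.53-fold) to 4.25 for *Slfn9* (19.0-fold), with n = 4 arrays per group. In each of the 7, every SP array lay above every PBS array. All 7 passed an adjusted p of 0.05 (limma, Benjamini-Hochberg adjustment over all 24625 rows), and 5 of them also reached a 2-fold difference. The median difference of the 7 was 2.37, against 0.10 over all rows. Many rows of these arrays changed, which sets the background for these counts. Of all rows, 44.1% passed the adjusted p in either direction and 21.5% passed it with the higher value in SP. A 2-fold higher value with the adjusted p was found in 6.37% of rows, and a 2-fold lower one in 11.3%. In 27.2% of rows all 4 SP arrays lay above all 4 PBS arrays.

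**Figure D1:**
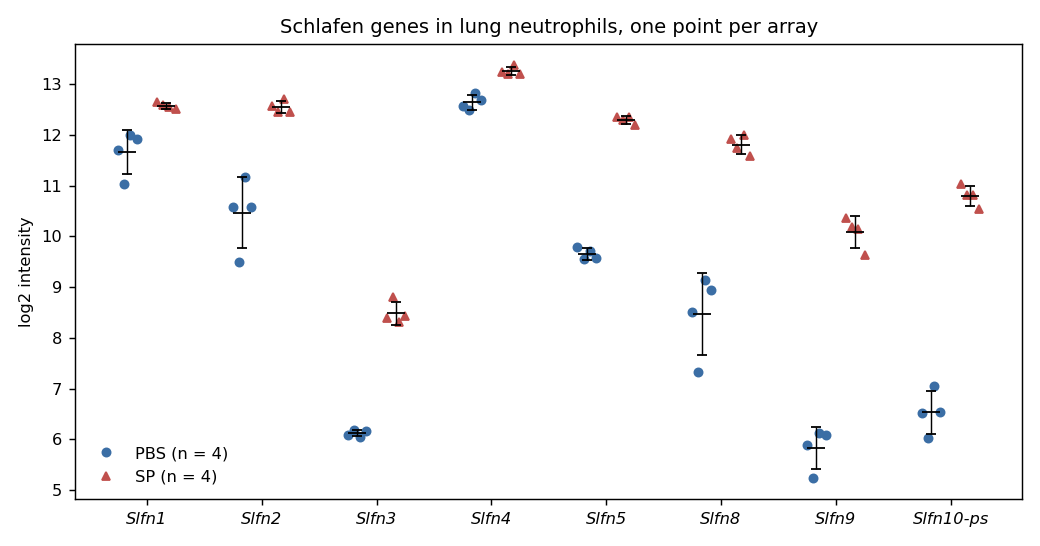
Deposited log2 intensity (vertical axis) of the 7 Schlafen genes and *Slfn10-ps* on each array, with circles for the 4 PBS arrays, triangles for the 4 SP arrays, and horizontal lines with bars for the mean ± SD. The groups overlap for no gene shown, and the PBS arrays of *Slfn2* and *Slfn8* are the most widely spread.

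Levels are given as log2 intensity, on which 1 unit is a 2-fold step. They depend on each gene's probes and are compared between groups for the same gene, not between genes. For scale, 3 Y-linked genes, which female mice lack, read 4.33 to 4.90 on these arrays, and the array medians lay between 6.06 and 6.20 in PBS and between 5.78 and 5.91 in SP.

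The short members were *Slfn1* and *Slfn2*. *Slfn1* (row NM_011407) was the first Schlafen gene described, for its hold on T-cell growth. Its 4 PBS arrays read 11.70, 11.04, 11.99 and 11.92, and its 4 SP arrays 12.65, 12.59, 12.55 and 12.51. The PBS arrays were spread and the SP arrays lay close together, without overlap. *Slfn1* rose by 0.91 (SE 0.19, 95% interval 0.47 to 1.36), which is 1.88-fold and short of the 2-fold mark (limma adjusted p = 0.00609, n = 4 per group). *Slfn2* (row NM_011408) is the member whose loss costs T cells and monocytes their quiescence. It read 10.59, 9.50, 11.18 and 10.58 in PBS and 12.57, 12.46, 12.71 and 12.46 in SP. PBS replicate 2 stood lowest by more than 1 unit, and even the highest PBS array lay below the SP arrays. The rise of *Slfn2* was 2.09 (SE 0.31, interval 1.38 to 2.79), or 4.25-fold (limma adjusted p = 0.000951).

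The intermediate members, *Slfn3* and *Slfn4*, lie next to each other and changed by very different amounts. *Slfn3* (row NM_011409), known from T cells and from differentiating gut epithelium, read 6.09, 6.18, 6.05 and 6.17 in PBS, near the array medians. In SP it read 8.40, 8.81, 8.31 and 8.43. The PBS arrays were within 0.13 of each other, and SP replicate 2 was the highest of all. *Slfn3* rose by 2.37 (SE 0.12, interval 2.10 to 2.63), or 5.15-fold (limma adjusted p = 4.90e-06). *Slfn4* (row NM_011410) is a myeloid member that is induced when macrophages are activated. Its arrays read 12.58, 12.49, 12.83 and 12.69 in PBS and 13.25, 13.21, 13.39 and 13.21 in SP. It was high in both groups, and the groups were close but did not overlap. *Slfn4* rose by 0.62 (SE 0.093, interval 0.40 to 0.83), or 1.53-fold, the smallest difference of the 7 (limma adjusted p = 0.00109). Its signals lay near the top of the scale, above 99.5% to 99.9% of the values of each array. Whether signals this bright are compressed was not tested.

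The long members, *Slfn5*, *Slfn8* and *Slfn9*, gave the 3 largest differences on the deposited scale. After a further quantile normalization *Slfn3* (2.59) stood above *Slfn5* (2.48). *Slfn5* (row NM_183201), a nuclear member, read 9.79, 9.56, 9.71 and 9.57 in PBS and 12.35, 12.29, 12.35 and 12.19 in SP. Both groups were tight, and they were separated by more than 2 units. *Slfn5* rose by 2.64 (SE 0.083, interval 2.45 to 2.83), or 6.22-fold, with the smallest p of the family, in place 17 of all rows (limma adjusted p = 7.76e-07). *Slfn8* (row NM_001167743), a close relative of *Slfn9*, read 8.50, 7.33, 9.14 and 8.94 in PBS and 11.92, 11.74, 11.99 and 11.58 in SP. PBS replicate 2 was again the lowest, and the PBS range of 1.81 was the widest of the family. *Slfn8* rose by 3.33 (SE 0.36, interval 2.51 to 4.15), or 10.1-fold (limma adjusted p = 0.000180). *Slfn9* (row NM_172796) read 5.89, 5.23, 6.13 and 6.08 in PBS and 10.36, 10.19, 10.15 and 9.63 in SP. In PBS it lay near or below the array medians, and in SP well above them. *Slfn9* rose by 4.25 (SE 0.23, interval 3.73 to 4.77), or 19.0-fold, and its difference was in place 58 of the 24625 rows (limma adjusted p = 8.06e-06).

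Other Schlafen genes were read beside the 7. *Slfn10-ps*, annotated as a pseudogene and placed between *Slfn8* and *Slfn2*, read 6.51, 6.03, 7.06 and 6.54 in PBS and 11.03, 10.82, 10.81 and 10.54 in SP. It rose by 4.26 (SE 0.21), or 19.2-fold (limma adjusted p = 4.87e-06). *Slfn8*, *Slfn9* and *Slfn10-ps* are similar in sequence, and how far their probes read each other's transcripts was not examined, so the size of each of the 3 differences is uncertain to that extent. *Slfnl1*, a Schlafen-like gene outside the cluster, read 4.43 to 4.86 in PBS and 4.43 to 4.80 in SP, the level of the Y-linked genes. Its difference was 0.029 (95% interval -0.25 to 0.31, limma adjusted p = 0.851, n = 4 per group). *Slfn14*, a long member known from red cell precursors and platelets, had no row matched to its name.

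**Figure D2:**
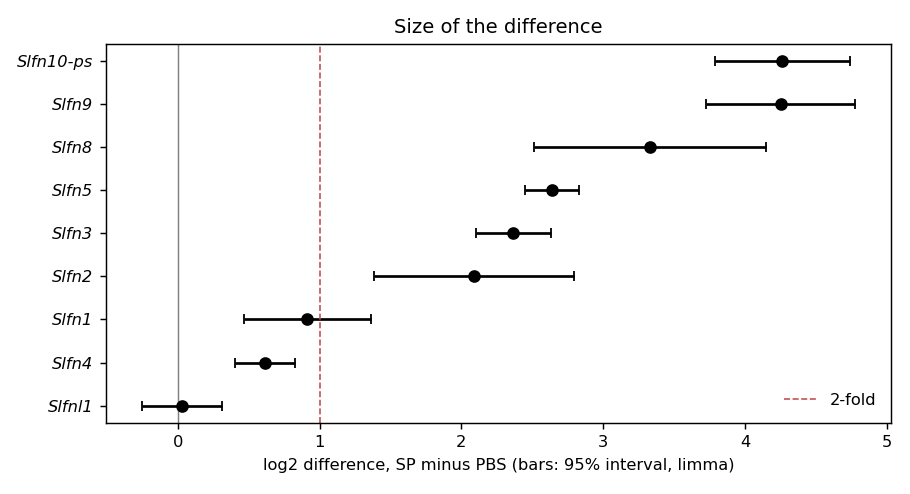
Difference between SP and PBS in log2 units (horizontal axis) for the 7 Schlafen genes, *Slfn10-ps* and *Slfnl1*, as points with 95% intervals from limma (n = 4 arrays per group), and a dashed line at 2-fold. The intervals of *Slfn2*, *Slfn3*, *Slfn5*, *Slfn8*, *Slfn9* and *Slfn10-ps* lie wholly to the right of the line, that of *Slfn1* crosses it, and that of *Slfn4* ends short of it.

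The sizes of the differences were compared between members. Compression of the bright *Slfn4* signals, and probes of *Slfn8* and *Slfn9* reading each other's transcripts, were not examined. The sizes therefore refer to the array signals. For each of the 21 pairs, the difference of the 2 genes on each array was set against the groups with an exact two-sided permutation test, adjusted over the 21 pairs. Of these, 15 pairs changed unequally with an adjusted p of 0.04, which comes from the smallest p that 70 arrangements of the arrays allow (0.0286). *Slfn9* changed by more than each of the other 6, by 0.92 more than *Slfn8* (limma interval 0.43 to 1.40) and by 3.64 more than *Slfn4* (3.16 to 4.11). *Slfn3* changed by 1.75 more than its neighbour *Slfn4* (1.31 to 2.19). *Slfn2* changed by 1.17 more than *Slfn1* (0.74 to 1.61), the other short member. The remaining 6 pairs missed the threshold. *Slfn1* exceeded *Slfn4* by 0.30 (-0.13 to 0.73, exact permutation adjusted p = 0.0667). *Slfn3* exceeded *Slfn2* by 0.28 (-0.41 to 0.97, adjusted p = 0.457 by the same exact test), and *Slfn5* exceeded *Slfn2* by 0.55 (-0.04 to 1.14, adjusted p = 0.15). *Slfn5* exceeded *Slfn3* by 0.27 (-0.15 to 0.69, adjusted p = 0.126 by the same exact test), and the sign turned after quantile normalization. *Slfn8* exceeded *Slfn3* by 0.97 (0.21 to 1.72) and *Slfn5* by 0.69 (0.03 to 1.36), both with an adjusted p of 0.0667 by the exact test. These intervals leave room for differences of more than 0.5 in every one of the 6 pairs. The test cannot pass the threshold once an array is left out, since 35 arrangements give no p under 0.0571, while all 21 pairs kept their sign in each such fit.

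**Figure D3:**
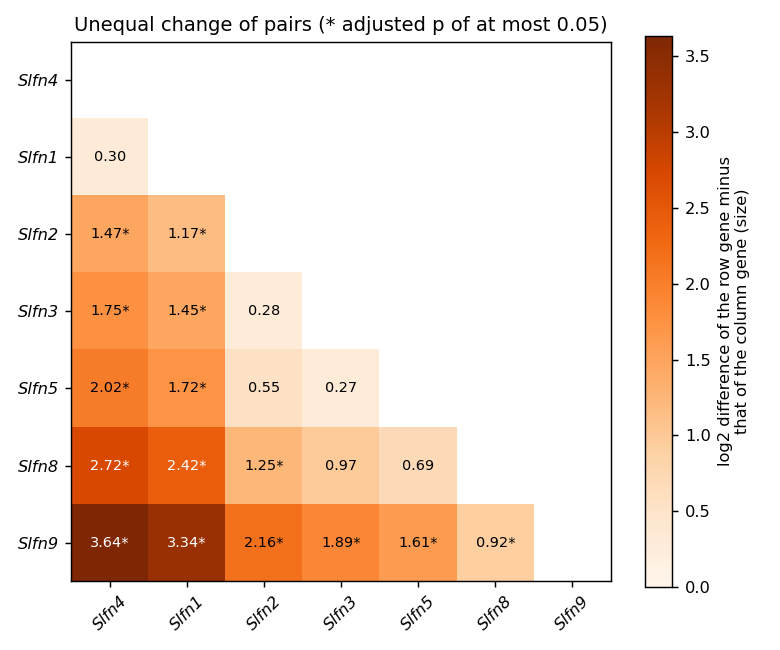
Unequal change of the 21 pairs of Schlafen genes, as the size in log2 units by which the SP minus PBS difference of the row gene exceeded that of the column gene, with darker cells for larger values and a star for an adjusted p of at most 0.05 (exact permutation test, 4 arrays per group). The row of *Slfn9* is starred throughout, and the 6 cells without a star lie between 0.27 and 0.97. Compression of bright signals and shared probes were not examined.

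The arrays of a group did not vary alike in the members. The PBS range exceeded the SP range in 6 of the 7, all but *Slfn3*, while this held for 34.1% of all rows. The PBS range was 1.68 for *Slfn2* against 0.26 in SP, and 0.95 against 0.14 for *Slfn1*. PBS replicate 2 was the lowest PBS array for 6 of the 7, again all but *Slfn3*, and was lowest in 36.3% of all rows. It lay below the PBS mean by 1.15 units for *Slfn8*, 0.96 for *Slfn2*, 0.62 for *Slfn1* and 0.60 for *Slfn9*, but by 0.16 for *Slfn4* and 0.10 for *Slfn5*. PBS replicate 3 was the highest for 5 of the 7. Without PBS replicate 2 the rises were smaller for all but *Slfn3*, at 0.71 for *Slfn1*, 1.77 for *Slfn2*, 2.38 for *Slfn3*, 0.56 for *Slfn4*, 2.60 for *Slfn5*, 2.95 for *Slfn8* and 4.05 for *Slfn9*. The same 5 genes then passed both thresholds.

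**Figure D4:**
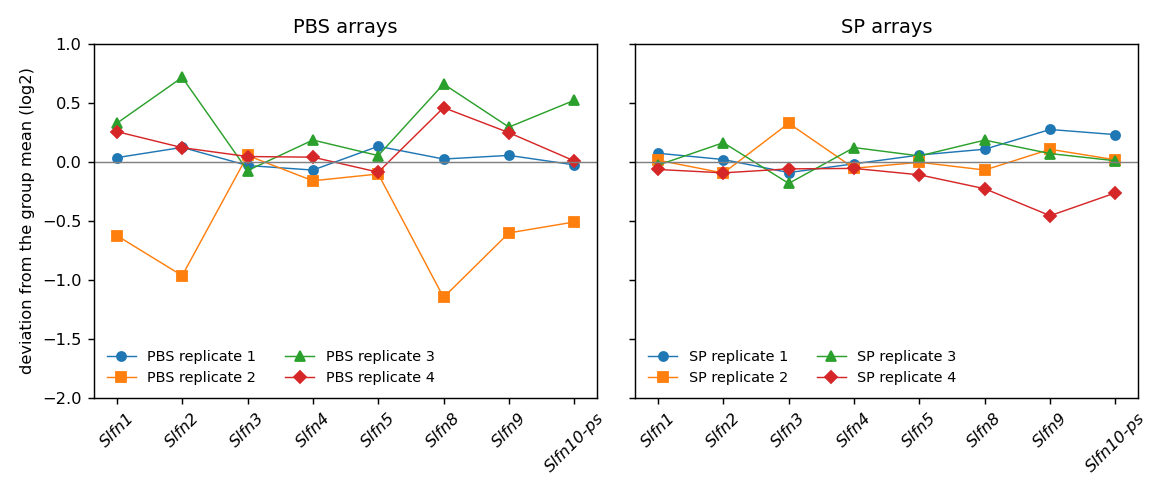
Deviation of each array from the mean of its group in log2 units (vertical axis) for the 7 Schlafen genes and *Slfn10-ps*, with PBS arrays on the left and SP arrays on the right, and lines joining the values of 1 array. PBS replicate 2 is far below the others for *Slfn1*, *Slfn2*, *Slfn8* and *Slfn9* and near the mean for *Slfn3*, *Slfn4* and *Slfn5*.

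Markers of neutrophils and of other cells moved beside these results. Of 9 neutrophil markers with a row, 3 were lower in SP by the adjusted p, none by 2-fold, and their summed level ran from 15.85 to 16.04 in PBS and from 15.33 to 16.01 in SP (log2). After quantile normalization 7 of the 9 were lower, and with arrays centred on their medians none was. The row of Ly6g, the protein used for the isolation, could not be matched by name. Of monocyte and macrophage markers, among which cells Schlafen genes are known to be expressed, 4 of 9 were higher in SP, and their summed level was 11.45 to 12.41 in PBS and 12.07 to 13.13 in SP. Of T-cell markers 2 of 8 were higher, at 8.60 to 9.29 and 8.99 to 10.15, and of natural killer markers 1 of 6. Of all rows, 21.5% passed the adjusted p with the higher value in SP, near the shares of both lists. With arrays centred on their medians, 4 of 8 T-cell and 5 of 6 natural killer markers were higher. Centring also moved the median difference of all rows from 0.10 to 0.38. Of alveolar macrophage markers 1 of 6 was higher and 3 were lower. Of the smaller lists, 1 of 4 eosinophil markers was higher, and 1 of 5 dendritic cell, 2 of 5 platelet, 1 of 4 erythroid and 1 of 6 fibroblast markers were lower. The counts of these smaller lists also moved with the scaling. All 6 B-cell markers, all 7 epithelial and 4 of 6 endothelial markers were lower in SP. The summed level of the epithelial markers was 15.17 to 15.47 in PBS and 14.02 to 14.48 in SP. In PBS it thus lay not far below that of the neutrophil markers, though such sums depend on the genes and probes. Endothelial markers summed to 13.03 to 13.95 in PBS and 12.04 to 12.74 in SP, and B-cell markers to 10.73 to 11.69 and 8.62 to 10.03. PBS replicate 2 had the lowest PBS value in 7 of 9 monocyte and macrophage and 6 of 9 neutrophil markers, and the highest in 7 of 7 epithelial and 5 of 6 endothelial ones. The part of other cells in the Schlafen differences, and in those of the gene lists below, was not tested. In bulk samples, fewer cells of a type and less RNA per cell cannot be told apart.

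Schlafen genes are known interferon targets, and the letters bound by interferon-driven factors can be looked for before the transcription start. The stretches of *Slfn1*, *Slfn2* and *Slfn3* were searched but are not shown. Shown are those of *Slfn9*, *Slfn8* and *Slfn5*, the largest rises on the deposited scale, and of *Slfn4*, the smallest. Each is the 250 bases before the start in RefSeq (mouse build GRCm38.p6), written 5′ to 3′ on the gene's own strand, which is the minus strand for *Slfn9* and *Slfn8* and the plus strand for *Slfn5* and *Slfn4*. Capitals mark the core of the interferon-stimulated response element (ISRE), GAAANNGAA, on either strand.
Slfn9, chr11:82991831-82992080: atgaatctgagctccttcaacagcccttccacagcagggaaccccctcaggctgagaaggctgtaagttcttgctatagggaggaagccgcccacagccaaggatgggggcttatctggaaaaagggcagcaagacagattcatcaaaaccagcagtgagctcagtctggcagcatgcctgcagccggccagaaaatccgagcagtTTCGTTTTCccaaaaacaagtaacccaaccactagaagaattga
Slfn8, chr11:83020811-83021060: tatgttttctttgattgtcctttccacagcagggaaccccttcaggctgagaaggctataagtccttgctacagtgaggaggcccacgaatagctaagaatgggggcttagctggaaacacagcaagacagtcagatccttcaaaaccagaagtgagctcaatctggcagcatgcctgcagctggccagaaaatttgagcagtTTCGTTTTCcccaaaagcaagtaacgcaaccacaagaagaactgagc
Slfn5, chr11:82951852-82952101: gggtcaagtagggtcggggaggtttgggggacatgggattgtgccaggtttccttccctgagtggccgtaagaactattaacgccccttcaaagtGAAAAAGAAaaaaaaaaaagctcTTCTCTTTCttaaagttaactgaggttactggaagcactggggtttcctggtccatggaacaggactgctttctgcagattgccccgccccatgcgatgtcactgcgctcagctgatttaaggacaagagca
Slfn4, chr11:83174936-83175185: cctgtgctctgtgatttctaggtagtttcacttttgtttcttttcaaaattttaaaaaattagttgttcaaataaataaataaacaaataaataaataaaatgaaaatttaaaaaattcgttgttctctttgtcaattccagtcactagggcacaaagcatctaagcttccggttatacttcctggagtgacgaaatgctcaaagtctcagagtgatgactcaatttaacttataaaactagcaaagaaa

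The ISRE letters were found in the promoter of 3 of the 7 members, and in 8.56% of all 32851 promoter entries of the same length (250 bases before to 50 after the start, both strands). The 3 were the long members. *Slfn9* held 1 match, 44 to 36 bases before its start, and *Slfn5* held 2, at 155 to 147 and at 132 to 124 bases before. *Slfn8* has 2 overlapping entries, which put its single match 47 to 39 bases before the start shown above or 135 to 127 before the other. *Slfn8* and *Slfn9* carried the same 9 letters. Over the 250 bases before their starts, with the *Slfn8* entry shown above, 204 of 245 aligned positions were identical (80% identity with gaps counted). Over the same 250 bases, all other pairs of members lay between 42.9% and 50.4%. No exact match stood in the windows of *Slfn1*, *Slfn2*, *Slfn3* and *Slfn4*, and near matches were not searched for. These members without a match rose by 0.91, 2.09, 2.37 and 0.62 in that order. The gamma-activated site, TTCNNNGAA, was in none of the 7 members and in 8.30% of all entries. The kappa B letters GGGNNTTTC were also in none of the 7 and in 4.36% of entries. No promoter motif overlapped another in the stretches shown. These are matches of letters and say nothing about binding.

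Genes of interferon signalling, the pathway known to induce many Schlafen genes, were mostly higher in SP. Of 18 with a row, 15 were higher and 1 lower by the adjusted p (limma), 11 of them by at least 2-fold, and the median difference was 1.29 against 0.10 over all rows. Of the transcription factors that carry the signal of type I interferon to the ISRE, *Stat2* rose by 2.79 (6.93-fold, SE 0.17) and *Irf9* by 1.33 (2.52-fold, SE 0.24). *Irf7*, which drives interferon production, rose by 2.38 (5.21-fold). Its PBS arrays were spread from 8.88 to 10.65. The feedback inhibitors *Socs1* and *Usp18* rose by 4.67 (25.5-fold) and 2.50 (5.65-fold). Other interferon regulatory factors past both thresholds were *Irf5* (2.32), *Irf1* (1.71) and *Irf8* (1.25), and the receptor kinase *Jak2* rose by 1.74. The groups overlapped for *Irf8*, whose adjusted p ran from 0.0530 to 0.0592 without PBS replicate 3 or 4 or SP replicate 1 or 2. Of the receptors, *Ifnar1* rose by 1.19, *Ifnar2* by 0.60 and *Ifngr2* by 0.65, and *Ifngr1*, the ligand-binding chain of the interferon gamma receptor, fell by 0.57 (adjusted p = 0.00958, limma). With arrays centred on their medians the fall of *Ifngr1* no longer passed (-0.29, limma adjusted p = 0.114). PBS replicate 2 was the lowest PBS array in 15 of these 18 genes, as it was for 6 of the 7 Schlafen genes.

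The family's known links to RNA cutting and to cell quiescence were followed in lists of other genes. Of 13 measured genes that cut, protect or repair transfer RNA, 3 were higher and 7 lower by the adjusted p (limma), with a median of -0.44. For this list and the next, the background over all rows was 44.1% passing in either direction and 21.5% with the higher value in SP. The median over all rows was 0.10. *Clp1*, a kinase of the transfer RNA splicing machinery, rose by 2.14 (4.42-fold). *Rnh1*, the inhibitor of angiogenin-type ribonucleases, rose by 1.03 (2.05-fold). *Ang*, angiogenin, the nuclease that cuts transfer RNA under stress, fell by 2.74, from 10.50 ± 0.11 to 7.76 ± 0.59 (SD, n = 4 per group; limma adjusted p = 0.000101). With arrays centred on their medians, and also after quantile normalization, the list's split was 4 higher and 3 lower. Of 18 genes of quiescence and entry into the cell cycle, 3 were higher and 8 lower, with a median of -0.47. *Cdk6*, a G1 kinase, rose by 1.27 (2.42-fold). *Foxo1*, a quiescence factor, fell by 1.28, and the cell-cycle inhibitor *Cdkn1b* fell by 1.25. *Cdkn2c*, another inhibitor, fell by 1.04 and the cyclin *Ccnd1* by 1.22. When arrays were centred on their medians, none of these 4 decreases reached 2-fold, and the split was 4 higher and 4 lower. After quantile normalization it was 2 higher and 11 lower, with a median of -0.51. How far other cells in the samples contributed to the differences of these lists was not tested.

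The genes on either side of the cluster were read too. Of the 5 nearest genes with a row on each side, none was higher by 2-fold, against 6.37% of all rows. By the adjusted p (limma), 3 of these 10 were higher and 2 lower, and 21.5% of all rows were higher. *Gas2l2* fell by 2.14 and *Unc45b*, a myosin chaperone, by 1.08. The median over the 10 was 0.11. *Slfn5os*, named for its place on the opposite strand of *Slfn5*, differed by 0.25 between the groups (limma adjusted p = 0.101, n = 4 per group). Within the cluster, the genes from *Slfn5* to *Slfn10-ps* had differences of 2.64 to 4.26. *Slfn2*, *Slfn1* and *Slfn4*, next in order, had 2.09, 0.91 and 0.62, before *Slfn3* at the end with 2.37.

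**Figure D5:**
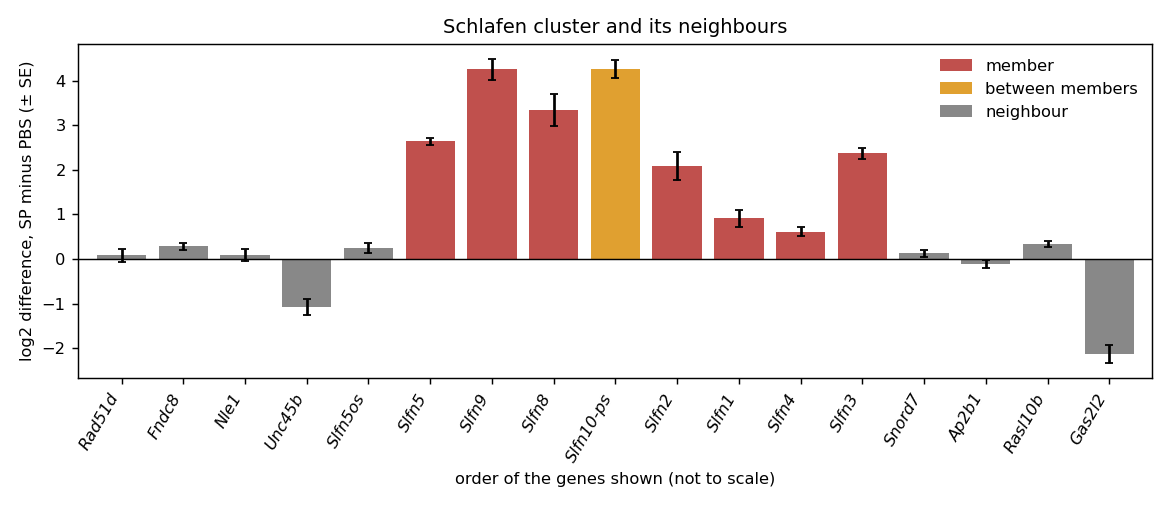
Difference between SP and PBS in log2 units ± SE (vertical axis, n = 4 arrays per group) for the Schlafen genes and 9 neighbouring genes with a row, in their order along chromosome 11 and not to scale. The 8 Schlafen genes lie between 0.62 and 4.26, and the neighbours shown between -2.14 and 0.34.

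For each member, the named genes with the most similar pattern were those with the smallest mean absolute difference over the 8 arrays, after each gene was centred on its own mean. The similarity covers the shift between groups as well as the spread within them. *Slfn9* was closest to *Slfn10-ps* (0.13 log2 units), then *Tifa*, an adaptor of innate signalling (0.17), and *Aoah*, an enzyme that inactivates bacterial lipopolysaccharide (0.18). *Slfn8* was closest to *Rhoh*, a GTPase of blood cells (0.054), followed by *AA467197* (0.070) and *Il1bos* (0.13). *Slfn5* was closest to the interferon-induced *Ifi35* (0.064), then *Sod2*, the mitochondrial superoxide dismutase (0.10), and *Slc8b1* (0.11). For *Slfn3* the nearest were *Mitd1* (0.11), *Parp12*, an interferon-induced ADP-ribosyltransferase (0.12), and the histone methyltransferase *Dot1l* (0.12). *Slfn2* was nearest to *Epsti1* (0.11), *Rnf19b* (0.11) and *Casp1*, the protease that activates interleukin-1 beta (0.13). *Slfn1* lay nearest to *Tank*, an adaptor of the kinase TBK1 (0.062), *Atf1* (0.064) and the nuclear body protein gene *Sp100* (0.072). *Slfn4* lay nearest to *Dda1* (0.038), *Rtn4* (0.041) and *Gosr2* (0.041), genes which differed between the groups by 0.59 to 0.63.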

How the data were processed

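RNA from 8 samples of lung neutrophils, 4 PBS and 4 SP, was hybridised by the authors to Affymetrix Mouse Gene 1.1 ST arrays, 1 array each. The study's methods describe probe signals summarized by gene. The deposited values are log2 intensities, made by the authors by robust multi-array averaging (RMA) with quantile normalization. They are relative within an array, so a change in total RNA cannot be read from them. The submitters' processing notes also name Affymetrix Expression Console and Partek. Groups and replicate numbers followed the sample titles. Of 24625 rows, 19915 (80.9%) were named through RefSeq genes of GRCm38.p6, with 19836 distinct symbols.

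All rows were compared with limma (version 3.58.1, R 4.3.3; lmFit and eBayes, two-sided, no covariates), with Benjamini-Hochberg adjustment over all rows and thresholds of an adjusted p of 0.05 and 2-fold (1 log2 unit). The fit was first tested on simulated data. Pairs of members were compared by exact permutation in scipy (version 1.17.1). The members and all gene lists were chosen with earlier results of these data known. Named were, by rule, the members, their relatives and neighbours, the genes of each process list past both thresholds with others a count needs, and the 3 genes most like each member over the 8 arrays. Alternatives were the methods' t-test, arrays weighted by quality, a robust prior with trend, quantile normalization, arrays centred on their medians, a block for the replicate number, limma's treat, dim rows left out, and each array left out in turn. Some genes of these lists are not reported here. A comparison of the proteins was planned and not run. The number of arrays limits the precision, and the scale has no counting depth.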

Additional observations from a re-analysis of the deposited data

How the results depend on the processing

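All 7 Schlafen genes were higher in SP under each of the 16 alternatives, and the differences stayed within 0.69 to 1.19 for *Slfn1*, 1.77 to 2.37 for *Slfn2*, 2.26 to 2.65 for *Slfn3*, 0.47 to 0.90 for *Slfn4*, 2.48 to 2.92 for *Slfn5*, 2.95 to 3.61 for *Slfn8* and 4.05 to 4.53 for *Slfn9*. The count at 2-fold was 5 and became 6, through *Slfn1*, with arrays centred on their medians (1.19) and without PBS replicate 3 (1.02). Centring moved the median of all rows from 0.10 to 0.38, and the calls over all rows from 1568 higher and 2773 lower to 2375 and 1896. Testing against a 2-fold difference (limma's treat) left 4 members, since *Slfn2* (2.09) then had an adjusted p of 0.0553, and *Slfn1* (0.91) and *Slfn4* (0.62) an adjusted p of 1. It left 660 rows higher and 912 lower, and 6 interferon signalling genes in place of 11. The transfer RNA list had 1 gene 2-fold higher in place of 2 after quantile normalization and under treat, and 1 to 2 without single arrays (*Rnh1*, lost without SP replicate 1 or 2). The quiescence list had 2 higher and 0 lower with centring, and 0 and 0 under treat. Of the neighbours, 1 was lower in place of 2 with centring, without dim rows, under treat, and 1 to 2 without single arrays (*Unc45b*, lost without PBS replicate 1). Leaving out any single array gave 0 unequal pairs, by construction of the exact test. With the replicate number as a block (replicate block), 5 members were called and 18 of the 21 pairs differed by limma, against 16 without it. Same-numbered arrays deviated together with correlations of 0.016, 0.030, 0.35 and -0.27, so the numbers were not taken to pair the arrays. *Slfnl1* stood at the level of the Y-linked genes, where a change could go unseen.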

Other observations

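*Slfn1* and *Slfn9* varied together across the PBS arrays, although they differ in size of response. Their difference was 5.83 ± 0.026 (SD over 4 PBS arrays), while the SDs of the genes themselves were 0.43 and 0.41. In SP the difference was 2.49 ± 0.27. This pair was singled out after the values were seen, and no test was run on the spread. SP replicate 4 was the lowest SP array for 5 of the 7 Schlafen genes, and in 27.0% of all rows.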
